A study of Rattus norvegicus with 16 samples.

Results

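Constitutive sites were 1539 stretches of rat RNA that carried a protein-protected site in each of 4 lists, 2 from control cortical neurons and 2 from neurons treated with NMDA. They were chosen by presence alone. Protein-protected sites (PPS) on the plus strand of chromosomes 11, 12, 16, 17, 18, 19 and 20 were joined across lists wherever they overlapped by at least 1 bp, and a joined site was kept when it held a PPS of every list. The joining gave 19793 sites, so the constitutive sites were 7.78% of them. Of the other sites, 11589 (58.6%) were found in 1 list, 4196 (21.2%) in 2 lists and 2469 (12.5%) in 3 lists. The 4 lists as deposited hold 329742 PPS over all chromosomes and both strands.

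The neurons came from Sprague–Dawley CD rat cortex taken at embryonic day 18 and were either control cultures or cultures given 10 µM NMDA. Treatment began at day 15 or 21 in vitro and lasted 4 or 24 hours, and which of these applies to the libraries used here is not settled by the labels. Each group had replicates 2 and 3, and each replicate comprised 4 libraries (single-strand-specific RNase or the double-strand-specific RNase V1, each with proteins kept or removed first), read as single reads of 50 bases and called at a false discovery rate of 5%. The labels' extraction text speaks of nuclei purified from tissue, which does not describe cultured neurons, so it is unclear if the RNA came from nuclei or from whole cells. No label says that replicates 2 and 3 were separate cultures, so the spread between them may be technical. The neuronal identity of the cells was not checked here, because PPS were assigned to no gene.

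Protein interaction profile sequencing maps where proteins sit on RNA. RNA-binding proteins shield the bases they cover from nucleases, so a stretch that survives digestion with proteins in place, and is lost once they are removed, is read as protected. The single-strand-specific enzyme (ssRNase) cuts unpaired bases and the double-strand-specific enzyme (dsRNase) cuts paired bases, so a peak from the first marks protected unpaired RNA and a peak from the second protected paired RNA. In neurons such proteins govern splicing, transport, stability and local translation of messenger RNA. NMDA opens the glutamate receptors named after it, and in excess the calcium that enters injures the cell.

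Values for the 4 lists follow the order control replicates 2 and 3, then NMDA replicates 2 and 3. The 7 plus strands held 8777, 8903, 9189 and 9523 PPS in that order. Of these, 2108, 2001, 2164 and 1966 lay in constitutive sites, or 24.0%, 22.5%, 23.5% and 20.6% of each list. The constitutive sites thus took a similar share of every list. The read depth behind a PPS is unknown. On these strands, PPS with the same start and end numbered from 16 to 88 for a pair of lists. Over all chromosomes, with strand ignored, control replicate 2 and NMDA replicate 3 shared 15915 such PPS and control replicate 3 and NMDA replicate 3 shared 11966. The 7 plus strands were selected on an earlier look at these lists because large blocks of shared peaks were not seen there.

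The threshold was presence in 4 lists rather than 3. Just outside it, control replicate 3 was the missing list at 951 of the 2469 sites found in 3 lists, NMDA replicate 2 at 579, NMDA replicate 3 at 492 and control replicate 2 at 447. The missing list had a PPS within 100 bp at 553 of these sites (22.4%) and within 10 bp at 63. Just inside it, 369 constitutive sites (24.0%) had no base that all 4 lists covered and were held together by chains of overlapping PPS. "Constitutive" therefore names the rule, and for those 369 sites it does not name a shared protected base. The other 1170 sites (76.0%) had a common stretch of at least 1 bp, and 793 (51.5%) had one of at least 20 bp. The median common stretch was 20 bp, with quartiles of 1 and 36 bp and a maximum of 149 bp.

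Joined constitutive sites were longer than the others, which the joining itself favours, so their length is a description. They ran from 12 to 1308 bp with a median of 130 bp and quartiles of 96 and 182 bp. Sites of 1 list had a median of 45 bp, sites of 2 lists 65 bp and sites of 3 lists 89 bp. At least 150 bp was reached by 588 constitutive sites (38.2%) and by 23 sites of 1 list (0.198%). A constitutive site held a median of 5 PPS over the 4 lists and at most 30. The 764 sites with exactly 1 PPS per list had a median length of 101 bp and the 775 with more PPS a median of 170 bp. Per list, the median length covered at a constitutive site was 83, 60, 71 and 94 bp, highest in NMDA replicate 3.

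**Figure D1:**
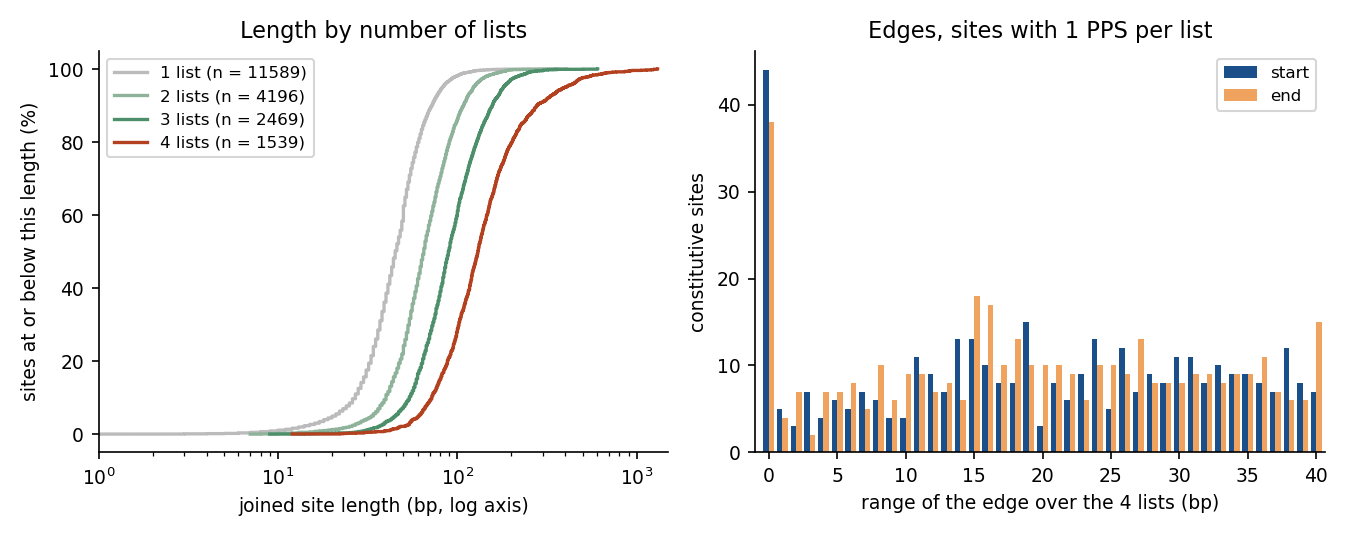
Left, cumulative percent of joined sites by length (bp, log axis) for sites found in 1, 2, 3 or 4 lists; the curves shift to the right from 1 list (median 45 bp) to 4 lists (median 130 bp). Right, number of constitutive sites with 1 PPS per list by the range of their starts or ends over the lists, drawn up to 40 bp, with the tallest bars at a range of 0 (44 starts and 38 ends).

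The edges of protection were seldom the same in all lists. Among the 764 constitutive sites with 1 PPS per list, the 4 starts spanned a median of 41.5 bp (quartiles 20 and 64 bp) and the 4 ends a median of 40 bp (18.75 and 62 bp). All 4 starts were the same base at 44 sites (5.76%), and all 4 ends at 38 (4.97%). A span of 1 to 10 bp was found for the starts of 51 sites and the ends of 65. The RNase behind the PPS differed among lists at 38 of the 44 sites with a shared start and at 32 of the 38 with a shared end, against 619 of all 764. Between pairs of lists, the same start was found at 10.7% to 16.9% of constitutive sites and at 10.8% to 14.5% of sites found in that pair only, so shared edges were not particular to constitutive sites.

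Individual sites, chosen after their values were seen, show what a shared edge looks like. On chromosome 12, at 47074469 to 47074606, all 4 PPS began at the first base and were 127, 29, 138 and 138 bp long. The 3 longer PPS were alike in length and control replicate 3 kept only the beginning. On chromosome 19, at 61712672 to 61712841, the 4 PPS shared their last base and were 50 bp, 37 bp, 6 bp and 170 bp long. Both edges were shared at 2 sites. The first was a 12 bp site on chromosome 16, at 26990893 to 26990904, with scores of 8.2, 8.35, 8.14 and 13.5. The second was a 39 bp site on chromosome 19, at 25061402 to 25061440, with scores of 10.94, 7.2, 7.73 and 23.48.

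The deposited score of a PPS is the authors' own value with no stated scale, so it was used only as a rank within its list. Constitutive sites ranked high in each list. Their median highest score was 9.48, 7.27, 9.39 and 9.41, where the median PPS of the list scored 6.82, 6.82, 7.43 and 6.82. As percentiles of their lists, these medians were 73.6, 70.7, 78.2 and 76.0, against 31.2, 18.2, 24.0 and 30.9 for sites of 1 list. Of the PPS in the top 10% of scores of each list, 49.1%, 40.0%, 49.5% and 49.5% lay in constitutive sites. A joined site takes the highest of several PPS, so these values are descriptions.

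A high rank in every list was less common. Constitutive sites above percentile 50 of the list in all 4 lists numbered 478 (31.1%). Another 544 were above it in 3 lists, 346 in 2, 142 in 1 and 29 in none. Percentiles are mid-ranks, and PPS with the median score of their list stood at 47.9, 58.7, 58.5 and 49.1. Such PPS thus counted as above in control replicate 3 and NMDA replicate 2 only. Only 31 (2.01%) were in the top 10% in all 4 lists, and 616 were there in no list. Across constitutive sites, Spearman's rho between the percentiles of a pair of lists ran from 0.0970 to 0.311, and that between covered lengths from 0.312 to 0.596. Sites are not independent replicates, so these are given without a test. Covered length was thus more alike between lists than score rank was. The covered length of every list is bounded by the same joined site, which favours that likeness.

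To compare score, length and RNase support, each PPS was measured in its own list and sorted by how many of the 3 other lists overlapped it. This overlap depends on the extent of the measured PPS too, and the rule used it. PPS found in all 3 others scored higher, were longer and more often held peaks of both RNases than PPS found in none. The median score percentile was higher by 47.9 ± 5.84 points (mean ± SD over 4 lists), in 4 of 4 lists. The median length was higher by 22.75 ± 14.4 bp in 4 of 4 lists: PPS found in all 3 others measured 73, 54, 62 and 85 bp and PPS found in none 50, 43, 48 and 42 bp. The share with peaks of both RNases was higher by 25.9 ± 10.7 percentage points, again in 4 of 4 lists. It was 33.6%, 14.7%, 24.8% and 41.2% for PPS found in all 3 others, and 3.04%, 2.15%, 1.61% and 3.75% for PPS found in none. The lowest of the former lay above the highest of the latter. In each comparison the exact two-sided sign-flip test gave p = 0.125, the smallest that 4 lists allow, and every list served both as the measured list and as a reference for the others. A longer PPS also overlaps others more easily and can merge more peaks, which favours a high top score and both RNases. The test cannot separate the differences from this, so they are descriptions and the p-value lends them no support. With a midpoint match the differences were 12.1 bp, 43.0 percentile points in score and 18.6 percentage points with both RNases. Without NMDA replicate 3 they were 13.3 bp, 32.4 percentile points and 17.5 percentage points, over the 3 remaining lists and at most 2 others.

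**Figure D2:**
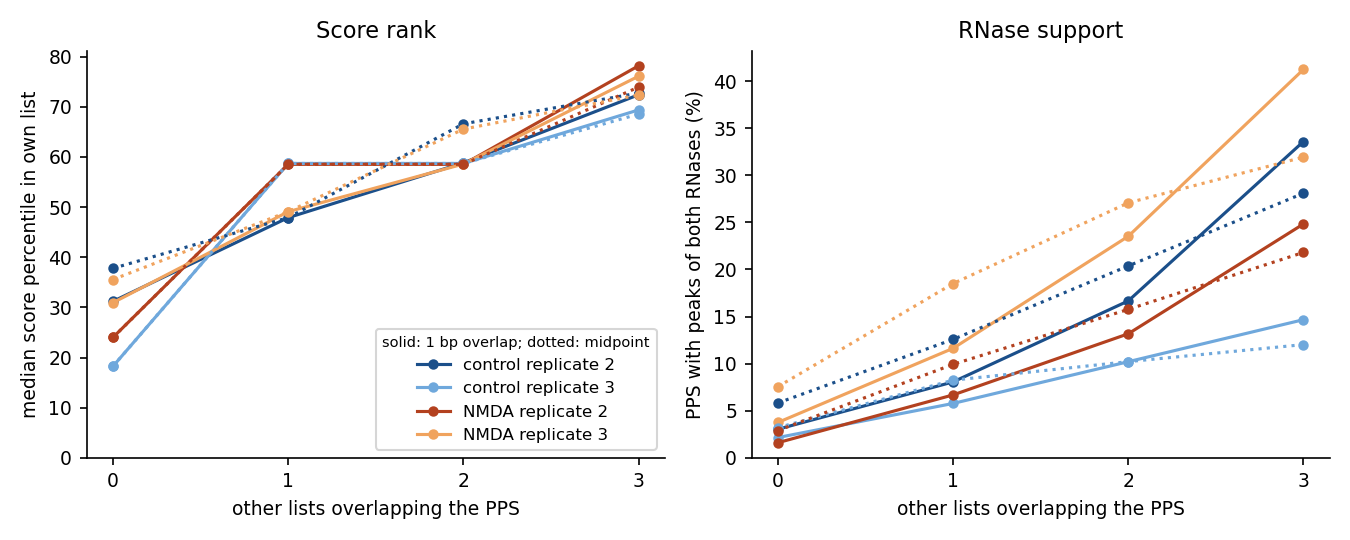
Median score percentile (left) and percent of PPS with peaks of both RNases (right) in each list, by the number of other lists that overlapped the PPS, from 0 to 3. Each colour is a list, solid lines count a 1 bp overlap and dotted lines a midpoint match; every line ends higher at 3 other lists than at 0.

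Presence in a list was also set against presence in the other lists. These are the calls that chose the sites, so the shares are a description with no test. Of sites present in all 3 other lists, 77.3% (Wilson 95% interval 75.4% to 79.1%) and 61.7% (59.7% to 63.5%) were found in control replicates 2 and 3. In NMDA replicates 2 and 3 it was 72.4% (70.5% to 74.3%) and 75.4% (73.5% to 77.3%). Of sites present in 1 of the 3 others, 22.0%, 20.5%, 20.5% and 25.4% were found. Control replicate 3 recovered the smallest share of the sites present in all 3 others. The difference between these shares was 49.6 ± 6.08 percentage points (mean ± SD over 4 lists), and 32.2 points when a match required the midpoint. Sites joined from more lists are longer and so are overlapped more easily. With each list dropped in turn, so that only 2 other lists could match, the difference was 29.7 points (without NMDA replicate 2) to 36.3 points (without control replicate 3). The intervals cover counting error only and treat sites as independent.

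RNase support at a constitutive site usually differed between lists. Peaks of both RNases were present somewhere among the 4 lists at 1356 sites (88.1%), against 67.4% of sites of 3 lists, 36.1% of sites of 2 lists and 2.61% of sites of 1 list. This share grows with the number of lists that can add a peak. Within a single list, 616 (40.0%), 357 (23.2%), 462 and 689 (44.8%) sites held both, in the order of the lists. The ssRNase alone supported 396, 510, 199 and 567 sites and the dsRNase alone 527, 672, 878 and 283. NMDA replicate 2 stood low for the ssRNase, also over its whole list, where 11.4% of PPS had an ssRNase peak alone, against 37.0%, 39.1% and 37.1% in the others. The values without that list stand with the comparison of the groups.

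The same support in all 4 lists was found at 251 constitutive sites (16.3%), and at least 1 RNase was shared by all lists at 876 (56.9%). At 109 sites the dsRNase alone supported the site in every list. These were short, with a median of 84 bp, and 98 of them had a common stretch. At 74 sites the ssRNase alone did so, with a median length of 117.5 bp and a common stretch at 50. At 68 sites both enzymes gave peaks in every list. These were long, with a median of 367 bp, 66 of them had a common stretch, and their lowest percentile over the lists had a median of 77.3. Only 3 of these 68 sites had 1 PPS per list, against 86 of the 109 dsRNase sites and 56 of the 74 ssRNase sites. More PPS in a list give more chances of both RNases, so these traits are descriptions. The remaining 1288 sites had mixed support and a median length of 131 bp.

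Where a list had ssRNase support alone at a constitutive site, another list more often had it too. For each pair of lists, among constitutive sites where each list had peaks of a single RNase, the same RNase was found at 55.7% to 69.5%. The odds ratio, the odds of an ssRNase site in a list when the other list also had an ssRNase site relative to when it had a dsRNase site, was 4.01 to 8.41 over the 6 pairs. It was above 1 on 7 of 7 chromosomes for all 6 pairs. The ssRNase gave a peak in all 4 lists at 342 sites and in none at 109, and the dsRNase in all 4 at 602 and in none at 74.

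**Figure D3:**
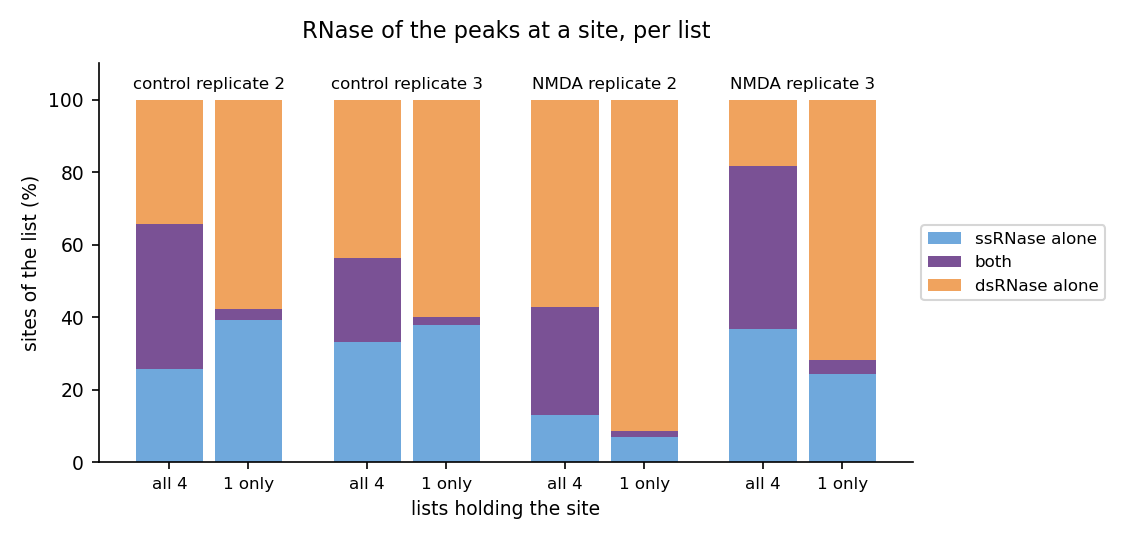
Percent of sites per list supported by the ssRNase alone, by both RNases or by the dsRNase alone, for constitutive sites (all 4) and for sites found in that list only (1 only). The share with both RNases is 23.2% to 44.8% at constitutive sites and 1.61% to 3.75% at sites of 1 list. All PPS of a list at a site are pooled, and per PPS in constitutive sites the share is 12.4% to 36.0%. NMDA replicate 2 has the smallest ssRNase share of the lists.

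The strongest constitutive sites were long and had peaks of both RNases. This is a description: a joined site with more PPS tends to be longer and has more chances of a high score and of both RNases. The strongest sites were named by the lowest of their 4 score percentiles. The first, on chromosome 19 at 56228377 to 56229623 (1247 bp), had highest scores of 40.66 and 16.33 in control replicates 2 and 3 and 55.74 and 34.45 in NMDA replicates 2 and 3. It stood at or above the 99.1 percentile in every list, and the common stretch of all 4 lists was 79 bp. The second, on chromosome 17 at 31443378 to 31444685, was the longest constitutive site (1308 bp), with scores of 17.68, 21.35, 29.61 and 86.02 and a common stretch of 85 bp. In NMDA replicate 3 a single PPS covered it from end to end, with the highest score of that list on these strands. A further site on that chromosome, at 31497403 to 31498642 (1240 bp), lay 52.7 kb away and scored 22.58, 13, 47.77 and 33.42. On chromosome 20, a 1203 bp site at 3424676 to 3425878 scored 20.13, 13.5, 33.42 and 37.78.

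The remaining sites of the 8 with the highest such rank were on chromosome 12 at 23814647 to 23815071 (425 bp) and 36641994 to 36642729 (736 bp), on chromosome 11 at 58672358 to 58672922 (565 bp) and on chromosome 16 at 27014143 to 27014819 (677 bp). Both RNases gave peaks in every list at 6 of the 8. At the other two, on chromosomes 12 (425 bp) and 16, control replicate 3 had dsRNase peaks alone. The 8 sites held 10 to 27 PPS, with common stretches of only 20 to 85 bp. The 4 longest constitutive sites, and the 4 strongest with both RNases in every list, were all among them.

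The longest common stretches lay at other, shorter sites. On chromosome 17, at 7797154 to 7797377, 149 of 224 bp were covered by all 4 lists, with scores of 23.6, 19.37, 15.21 and 11.03. On chromosome 19, at 56226179 to 56226287, 105 of 109 bp were covered by all lists, with scores of 23.54, 7.58, 19.36 and 21.94. This site had a single PPS in each list and lay 2089 bp before the strongest site. On the same chromosome, at 32247473 to 32247617, 112 of 145 bp were common, and on chromosome 20, at 42968475 to 42968823, 106 of 349 bp. At the last, the common stretch was a minor part of the joined site, and at the others it was the greater part.

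Constitutive sites lay close to each other. Another constitutive site was found within 1 kb of 701 of them (45.5%, Wilson 95% interval 43.1% to 48.0%), against 12.4% of sites of 1 list, 19.9% of sites of 2 lists and 29.97% of sites of 3 lists. The share was higher than that of sites of 1 list on 7 of 7 chromosomes. Within 10 kb the shares were 75.4% and 31.8%, and within 100 kb 90.5% and 64.5%. The median distance to the nearest constitutive site was 1327 bp for constitutive sites and 39186 bp for sites of 1 list. Constitutive sites were also closer to sites of any kind, at a median of 81 bp, against 123, 160 and 323 bp for sites of 3, 2 and 1 lists. The part of this overall density in their closeness to each other was not tested. Neighbouring sites can belong to the same RNA, so they are not independent, and how much RNA each locus gave was not analysed here.

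**Figure D4:**
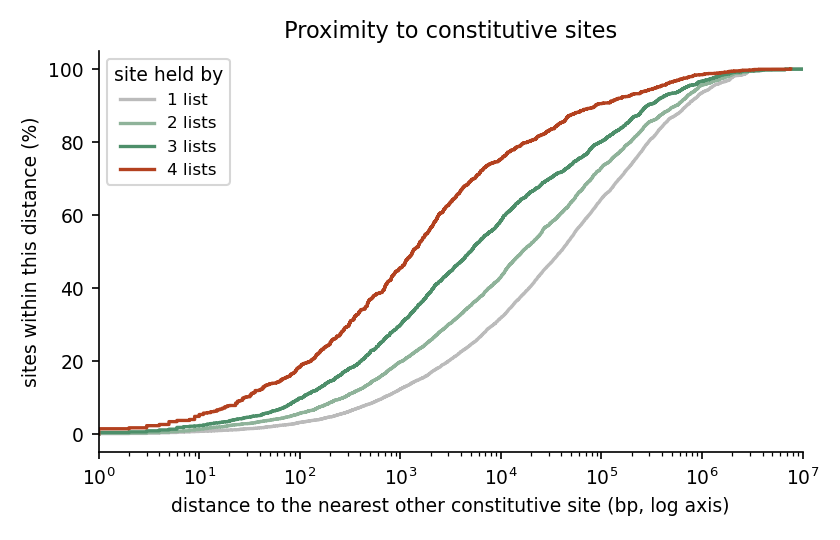
Cumulative percent of sites by the distance in bp (log axis) to the nearest other constitutive site, for sites found in 1, 2, 3 or 4 lists. At 1 kb the order follows the number of lists, with 45.5% of constitutive sites and 12.4% of sites of 1 list.

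With gaps of at most 1 kb, the 701 sites formed 226 runs. The largest run had 18 constitutive sites in 6851 bp on chromosome 12, at 50454992 to 50461842, and 13 of them had a common stretch. It held 30 and 24 PPS in control replicates 2 and 3, and 28 and 26 in NMDA replicates 2 and 3. The next had 14 sites in 5066 bp on chromosome 18, at 27101161 to 27106226, with 25, 23, 24 and 21 PPS. Runs of 10 sites lay on chromosome 11 at 16859665 to 16864105 and on chromosome 20 at 41100181 to 41104200, and at the latter all 10 had a common stretch. In the 2 largest runs, the control and NMDA lists held similar numbers of PPS. The rule requires a PPS of every list at each of these sites, so much of that likeness is built in.

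In windows of 100 kb, 532 of the 1748 windows with any site held a constitutive site. The 100 windows with at least 5 held 785 of them (51.0%), and the same windows held 15.9% of the sites of 1 list. The richest window, on chromosome 12 from 50.4 Mb, had 20 constitutive sites of 53 in all, and those on chromosome 18 from 27.1 Mb and chromosome 12 from 39.5 Mb had 18 of 41 and 16 of 39. The fourth, on chromosome 17 from 75.6 Mb, had 15 of 144. This last window was also 1 of the 8 densest in sites of any kind. The 8 windows with at least 100 sites held 58 constitutive sites of 1247, or 4.65%, against 7.78% over all. Among these windows the share ran from 0.901% (1 of 111, chromosome 16 from 77.2 Mb) to 11.4% (14 of 123, chromosome 11 from 34.6 Mb).

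**Figure D5:**
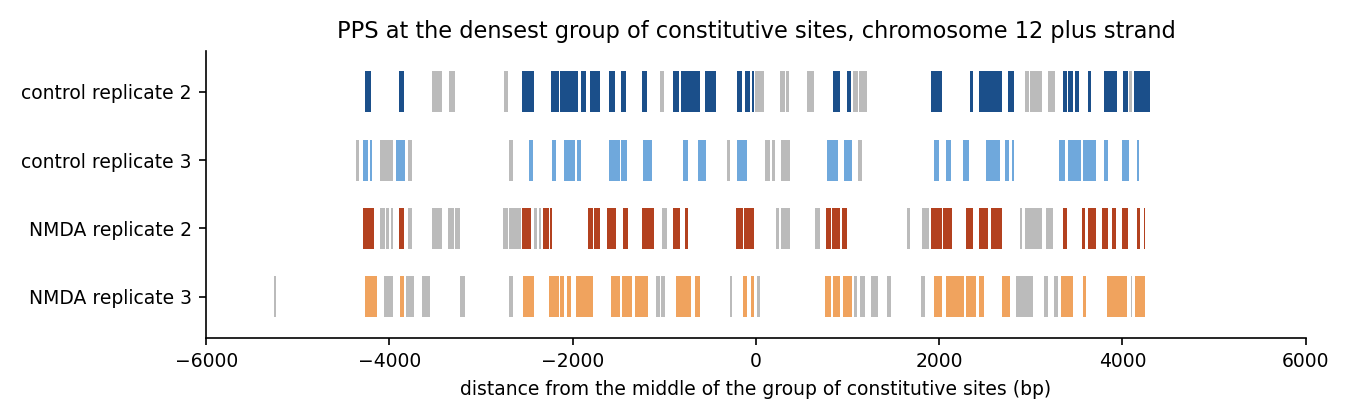
PPS of the 4 lists over the richest 100 kb window's 20 constitutive sites, which span 8589 bp, as distance in bp from their middle; coloured bars lie in constitutive sites and grey bars in other sites. Each list places coloured bars along the whole span, as the rule requires, and the edges of the bars shift from list to list.

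By chromosome, constitutive sites numbered 186 (11), 247 (12), 195 (16), 249 (17), 249 (18), 212 (19) and 201 (20). Their share of the sites of a chromosome was lowest on chromosome 16 (5.57%) and highest on chromosome 12 (247 of 2744 sites). A PPS of any list on the opposite strand overlapped 22 constitutive sites (1.43%), 1.22% of the sites of 3 lists, 2.00% of the sites of 2 lists and 0.958% of the sites of 1 list, with no order by number of lists.

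NMDA treatment was then compared with control within the constitutive sites, which asks whether protection present in all lists changed in extent or kind after treatment. No site passed the test. The length covered per site, as log2 bp, was fitted with limma over the 4 lists, and 0 of 1539 sites (0%) had an adjusted p under 0.05. At an unadjusted p under 0.05 there were 35 (2.27%), of which 22 were longer and 13 shorter in NMDA, and the smallest adjusted p was 1. That is fewer than a threshold of 0.05 passes on average where nothing differs. More cells with a protected RNA and more protection per cell cannot be told apart in these bulk cultures.

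The median log2 difference, NMDA minus control, was 0.17, with 61.2% of sites above 0. Centring each list on its median, which sets this balance near 0 by construction, gave -0.04 and 46.8%, so those values do not bear on the balance before it. Both NMDA lists covered more than both control lists at 256 sites (16.6%), and less at 128 (8.32%). Only constitutive sites have a covered length in every list, so no share over other sites can stand beside these counts. They carry each list's own covered length and were not tested. Without control replicate 3 the median log2 difference was -0.13, with 40.9% of sites above 0. Without control replicate 2 it was 0.34, with 66.1% above 0, and 117 sites had an unadjusted p under 0.05, of which 111 were longer in NMDA. Either fit leaves 1 control list, assumed to vary as the NMDA lists do.

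Single sites with the largest differences between groups that did not overlap are given as values. On chromosome 11, at 60398108 to 60398294, 32 and 26 bp were covered in control replicates 2 and 3, and 128 and 184 bp in NMDA replicates 2 and 3 (log2 difference 2.41, SE 0.549, limma adjusted p = 1). There control replicate 2 had the ssRNase alone, control replicate 3 the dsRNase alone and each NMDA list both. On chromosome 17, at 80886818 to 80886913, the controls covered 22 and 23 bp and the NMDA lists 96 and 96 bp (log2 difference 2.09, limma adjusted p = 1). At this site each control list had the dsRNase alone and each NMDA list both RNases. A further chromosome 17 site, at 27512980 to 27513119, had 73 and 7 bp covered in the controls, against 99 and 97 bp with NMDA. In the opposite direction, 94 and 163 bp for the controls stood against 42 and 19 bp for NMDA on chromosome 16, at 20000934 to 20001113. On chromosome 19, at 54575073 to 54575411, the values were 251 and 157 bp against 47 and 51 bp. On chromosome 17, at 9116623 to 9116695, they were 73 and 63 bp against 15 and 19 bp.

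Within constitutive sites, the share with both RNases and the PPS length differed between groups by less than the SD of either group. For the ssRNase-alone share the difference was larger than the control SD and smaller than the NMDA SD. PPS with both RNases were 28.4% and 12.4% of those in control replicates 2 and 3, and 20.2% and 36.0% in NMDA replicates 2 and 3. The groups overlapped, at 20.4 ± 11.3% for control against 28.1 ± 11.1% for NMDA (SD, n = 2, exact permutation p = 0.667). PPS with the ssRNase alone were 33.6% and 37.9% in control and 14.0% and 42.9% in NMDA, so the NMDA lists lay on either side of both controls (35.8 ± 3.04% against 28.4 ± 20.5%, n = 2, exact permutation p = 1). The control lists had median PPS lengths of 66 and 50 bp, the NMDA lists of 56 and 76 bp (58.0 ± 11.3 against 66.0 ± 14.1 bp, n = 2, exact permutation p = 0.667). Over all PPS of the 7 plus strands, the NMDA minus control differences were 2.99 points for both RNases, -13.8 points for the ssRNase alone and 1 bp in median length, where within constitutive sites they were 7.70 points, -7.34 points and 8 bp. The contrast between constitutive sites and all PPS was not tested. With 2 lists per group, the exact two-sided test cannot go below p = 0.333.

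These directions rested on single lists. Without NMDA replicate 2, the difference in the ssRNase-alone share turned from -7.34 to 7.15 percentage points. Without control replicate 3 or without NMDA replicate 3, the difference in the share with both RNases turned from 7.70 to -0.29 and to -0.19 points, and that in median length from 8 bp to 0 and to -2 bp. By presence of peaks, the ssRNase was found in both NMDA lists and in no control list at 45 constitutive sites (2.92%). The reverse was found at 32 (2.08%). For the dsRNase the counts were 58 (3.77%) and 13 (0.845%). These counts carry each list's own RNase balance and were not tested.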

How the data were processed

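The authors' deposited lists give each PPS its position, strand, the RNase of each merged peak and a score per peak, in a unit not given in the sources used here. The notes of the submitters name cutadapt 1.2.1, TopHat2 2.0.10 and rn6, with no role or order, and the labels give CSAR as the name of the lists, at a 5% false discovery rate. Each PPS took its top peak's score, which served only to rank PPS within a list (mid-rank percentile). Members and all lists were chosen with earlier results of these data known.

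Lists took their groups and replicate numbers from the labels, and the list was the unit (2 per group). Sites were joined per strand at 1 bp overlap in Python 3.11.15 (numpy 2.4.6, scipy 1.17.1). Covered length was fitted as log2 bp with limma (version 3.58.1, R 4.3.3) by lmFit and trended eBayes, with Benjamini-Hochberg adjustment. Single values were compared by exact two-sided permutation or sign-flip tests. Scripts were tested on simulated data. Named sites were the 8 with the highest lowest percentile, the 4 with the longest common stretch, the 4 longest, the 4 highest-ranked with both RNases in every list, the 4 richest 100 kb windows, and 3 per direction with the largest NMDA difference without overlap of groups. Positions are 1-based on rn6. No rn6 sequence or annotation was used here, so no gene or sequence is named. Structure profiles and reads were not analysed here.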

Additional observations from a re-analysis of the deposited data

How the results depend on the processing

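Of 78 alternatives, 62 kept direction and side of the threshold, or a value near the main one, and 16 did not. Among the 62, the presence difference of 49.6 points still fell to between 29.7 (without NMDA replicate 2) and 36.3 points (without control replicate 3) with 1 list left out, and the PPS length difference of 22.75 bp to 13.3 bp without NMDA replicate 3. Without NMDA replicate 3 the score difference also fell, from 47.9 to 32.4 percentile points, and the both-RNase difference from 25.9 to 17.5 percentage points. The number of constitutive sites, 1539, became 793 with a common stretch of 20 bp, 352 with PPS above the list median and 2722 with strand ignored. It was 340 when only PPS holding an ssRNase peak were joined, and 595 when only PPS holding a dsRNase peak were. Leaving out each list and asking for the other 3 gave 1970 (without control replicate 2) to 2480 (without control replicate 3). The share of sites with the same RNase support in all lists, 16.3%, was 56.9% when any shared RNase counted and 18.98% at sites with 1 PPS per list. The share with a neighbour within 1 kb, 45.5%, was 75.4% within 10 kb, 90.5% within 100 kb and 36.8% with PPS of at most 150 bp. Leaving out each list moved the NMDA difference in median PPS length from -2 to 18 bp, in the share with both RNases from -0.29 to 15.7 points and in the ssRNase-alone share from -21.8 to 7.15 points. The cause of these moves was not tested. Limma called 0 sites in every alternative run. With the replicate block the 3 differences were 8 bp, 7.70 and -7.34 points, and limma again called 0 sites. Samples share only a number here: the deviations of same-numbered lists correlated at -0.0890 over 1539 sites. Depth behind a PPS is unknown, so a PPS missing from a list may be one that was not detectable there.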
